A study of Homo sapiens with 7 samples.

Results

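Integrins are cell surface receptors made of 1 alpha and 1 beta chain, and the 10 genes described here encode 6 alpha chains (ITGA2, ITGA3, ITGA5, ITGA6, ITGA10 and ITGAV) and 4 beta chains (ITGB1, ITGB4, ITGB5 and ITGB8) out of 26 human integrin subunit genes. They were taken by symbol from a table of 60675 genes, of which 16583 had enough counts to be tested, and all 10 were among these. The list was drawn up with the fold changes of these libraries known, so the values of the 10 genes are given as a description and without a test. RNA was sequenced from the human line MDA-MB-231, which derives from a triple-negative breast cancer and carried siRNA against DEPDC1 (siDEPDC1, 4 libraries) or a control siRNA (siCTL, 3 libraries). Each transfection used 5 µl of 20 µM siRNA with Lipofectamine RNAiMAX, the medium was changed after 8 h, and cells were collected after 2 days, so cells of each group had met lipid and a siRNA. The sources used here do not name the DEPDC1 duplexes, and 1 cell line was studied.

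Each alpha chain can pair with 1 or a few beta chains, and the pair sets which matrix protein is bound outside the cell. ITGB1 is the shared partner of most alpha chains, including the collagen, laminin and fibronectin receptors, while ITGB4 pairs with ITGA6 only and anchors keratin filaments at hemidesmosomes. ITGAV pairs with several beta chains, among them ITGB1, ITGB3, ITGB5 and ITGB8. Inside the cell, talins and kindlins bind the beta tails and switch the receptor on. In breast cancer cells integrins are known for their part in adhesion, spreading and migration.

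Library totals were 7690583 to 13483305 counts in siDEPDC1 and 11704246 to 15360409 counts in siCTL. DEPDC1 (ENSG00000024526), the siRNA target, was at 15.3, 12.7, 13.4 and 11.9 CPM (counts scaled by library total and TMM factor) in the siDEPDC1 libraries, against 114, 119 and 120 CPM in the siCTL libraries. The labels do not say that replicates came from separate cultures, so errors and p-values measure only how far the 7 libraries differ, possibly for technical reasons. Of the line's markers, VIM was at 3491 to 3773 CPM in siDEPDC1 and 3538 to 3869 CPM in siCTL. CDH1 was at 0.196 to 0.535 and 0.869 to 1.55 CPM (lower, -1.55 ± 0.41, SE, edgeR adjusted p = 0.0030). Its values rest on 2 to 6 counts in siDEPDC1 and 10 to 21 counts in siCTL. ESR1 was at most 0.130 and 0.525 CPM and PGR at most 0.651 and 0.442 CPM. EPCAM, at 10.6 to 12.5 and 10.1 to 10.7 CPM, and ERBB2, at 61.7 to 70.6 and 63.7 to 65.4 CPM, were not absent. Neither passed the test (edgeR adjusted p = 0.24 and 0.74). The epithelial keratins KRT18 and KRT8 were higher, at 429 ± 23.0 and 898 ± 71.5 CPM in siDEPDC1 (SD, n = 4), against 349 ± 21.7 and 740 ± 48.9 CPM in siCTL (SD, n = 3; log2 fold changes of 0.30 and 0.28; edgeR adjusted p = 9.6e-05 and 0.00055). The 11 markers of blood, endothelial, fibroblast and platelet cells summed to 50.1 to 59.5 CPM in siDEPDC1 and 35.3 to 36.6 CPM in siCTL. Without COL1A1 the sums were 22.8 to 27.3 CPM and 20.9 to 24.4 CPM, the platelet marker GP9 was at 0 in all 7 libraries, and 2 of the 5 tested markers (COL1A1 and CD14) were higher and 0 lower. The part of such cells in the results below was not tested.

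The 10 integrin subunits moved in both directions after DEPDC1 siRNA. Collagen-binding and RGD-binding alpha chains were lower, by 4.79-fold in ITGA10, 1.845-fold in ITGA5, 1.53-fold in ITGAV and 1.37-fold in ITGA2, while ITGB4 was 1.32-fold and ITGB1 1.13-fold higher. In the fit across all genes (edgeR quasi-likelihood test, adjusted p under 0.05), 8 of the 10 passed the threshold, 6 as lower and 2 as higher, where 34.4% of all tested genes passed it, 17.9% as lower and 16.5% as higher. In 7 of the 10 every siDEPDC1 library lay on 1 side of every siCTL library, 5 of them below and 2 above, as in 37.3% of all tested genes, 19.6% below and 17.7% above. These shares come from the contrast the list was drawn from, and nothing is read from them. Fewer transcripts per cell and fewer cells of a kind cannot be told apart in bulk RNA.

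A 7-base word, GATAACT, was looked for in the 10 messages. It was picked from the fold changes of these same libraries, so its copies, here and in the gene lists below, are a description. The siRNA target DEPDC1 holds it across its stop codon, but the sources used here do not give the siRNA sequence. The 25 bases around each copy in DEPDC1 and in the 10 subunits are shown, read on the sense strand of GENCODE release 29 transcripts, with the word in capitals.
DEPDC1, last exon, chr1:68476930-68476936, minus strand: gtagtctaaGATAACTaactgaatt
ITGA5, exon 4, coding, chr12:54409268-54409274, minus strand: ctctccacaGATAACTtcacccgaa
ITGA5, last exon, 3' UTR, chr12:54395973-54395979, minus strand: acttggaaaGATAACTaggaaatcc
Among the 10 subunits the word was thus found in ITGA5 alone, with 1 copy in exon 4 of 30 and 1 copy at base 314 of its 1032-base 3' UTR. The share of 3' UTRs with a copy was 7.71% (952 of 12340 tested genes with at least 50 bases searched), with a median log2 fold change of -0.24 in these and 0.014 in the others. Nothing is read from these medians, since the word was picked from such values. ITGA10, with the largest change, had no copy in its 1590-base 3' UTR or its coding sequence. One transcript was searched per gene, on the sense strand, and copies in other isoforms would be missed.

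Both collagen-binding alpha chains were lower, ITGA10 far more than ITGA2. ITGA10 (ENSG00000143127; GRCh38 chr1:145891208-145910189, minus strand), an alpha chain that binds collagen with ITGB1 and is best known from cartilage, was at 12.6, 10.6, 8.73 and 9.98 CPM in siDEPDC1, against 47.1, 49.6 and 55.3 CPM in siCTL. All 4 siDEPDC1 libraries lay far under the lowest siCTL library. On average ITGA10 was at 10.5 ± 1.62 CPM in siDEPDC1 (SD, n = 4) and at 50.7 ± 4.21 CPM in siCTL (SD, n = 3), a log2 fold change of -2.26 ± 0.091 (SE) that left 20.9% of the transcript. These values rest on 67 to 144 counts in siDEPDC1 and 637 to 756 counts in siCTL. ITGA2 (ENSG00000164171; chr5:52989326-53094779, plus strand), the alpha chain of the main collagen receptor of epithelial cells, was at 646, 520, 519 and 532 CPM in siDEPDC1, against 738, 735 and 806 CPM in siCTL. Replicate 1 of siDEPDC1 stood above the other 3, which lay between 519 and 532 CPM, and the groups did not overlap. Its log2 fold change was -0.46 ± 0.064 (SE).

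The alpha chains of fibronectin and vitronectin receptors, which bind the RGD motif, were lower as well. ITGA5 (ENSG00000161638; chr12:54395261-54419460, minus strand), the fibronectin receptor chain that carries GATAACT, was at 144, 136, 128 and 152 CPM in siDEPDC1, against 258, 269 and 248 CPM in siCTL. The highest siDEPDC1 library was well under the lowest siCTL library, with a log2 fold change of -0.88 ± 0.058 (SE). ITGAV (ENSG00000138448; chr2:186590065-186680901, plus strand), which binds vitronectin and latent TGF-beta, was at 111, 96.9, 80.6 and 85.6 CPM in siDEPDC1, against 141, 134 and 155 CPM in siCTL. The siDEPDC1 libraries were spread more widely than the siCTL libraries but stayed under them, with a log2 fold change of -0.61 ± 0.079 (SE). Its 3' UTR of 3609 bases had no copy of the word.

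Laminin-binding chains changed least among the alpha chains. ITGA3 (ENSG00000005884; chr17:50055968-50090481, plus strand), a receptor chain for the laminins of epithelial basement membrane, was at 1453, 1418, 1504 and 1633 CPM in siDEPDC1, against 1436, 1416 and 1327 CPM in siCTL. The groups overlapped, and the log2 fold change of 0.11 had a 95% interval from -0.007 to 0.22. ITGA6 (ENSG00000091409; chr2:172427354-172506282, plus strand), the laminin chain that pairs with ITGB1 or ITGB4, was at 854, 776, 769 and 754.5 CPM in siDEPDC1, against 909, 882 and 925 CPM in siCTL. The groups were apart but close, at a log2 fold change of -0.20 ± 0.056 (SE). This value was -0.11 ± 0.041 (SE) once a trend with GC content and length was removed from each library, an alternative chosen after seeing the data.

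Of the beta chains, ITGB4 and ITGB1 were higher. ITGB4 (ENSG00000132470; chr17:75721328-75757818, plus strand) was at 384, 351, 362 and 430 CPM in siDEPDC1, against 304, 291 and 273 CPM in siCTL. All siDEPDC1 libraries lay above all siCTL libraries, and the log2 fold change was 0.40 ± 0.062 (SE). ITGB1 (ENSG00000150093; chr10:32900319-33005792, minus strand) was at 867.5, 857, 778 and 795 CPM in siDEPDC1, against 700, 732 and 765 CPM in siCTL. The groups did not overlap but lay close, with a log2 fold change of 0.17 ± 0.057 (SE). It was not past the threshold when siCTL replicate 1 or 2, or siDEPDC1 replicate 2, was left out, with log2 fold changes of 0.14, 0.17 and 0.155.

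ITGB5 and ITGB8, which pair with ITGAV, were not higher. ITGB5 (ENSG00000082781; chr3:124761948-124901418, minus strand), of the vitronectin receptor, was at 142, 159, 154 and 161 CPM in siDEPDC1, against 157, 163 and 150 CPM in siCTL. The groups overlapped over most of their range, and the log2 fold change of -0.025 had a 95% interval from -0.14 to 0.088. ITGB8 (ENSG00000105855; chr7:20330702-20415754, plus strand), of a receptor that activates latent TGF-beta, was at 11.8, 10.0, 8.47 and 7.84 CPM in siDEPDC1, against 13.3, 11.8 and 13.6 CPM in siCTL. Its highest siDEPDC1 library reached its lowest siCTL library, and the log2 fold change was -0.42 ± 0.12 (SE), or -0.265 ± 0.10 (SE) with the GC and length trend removed.

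**Figure D1:**
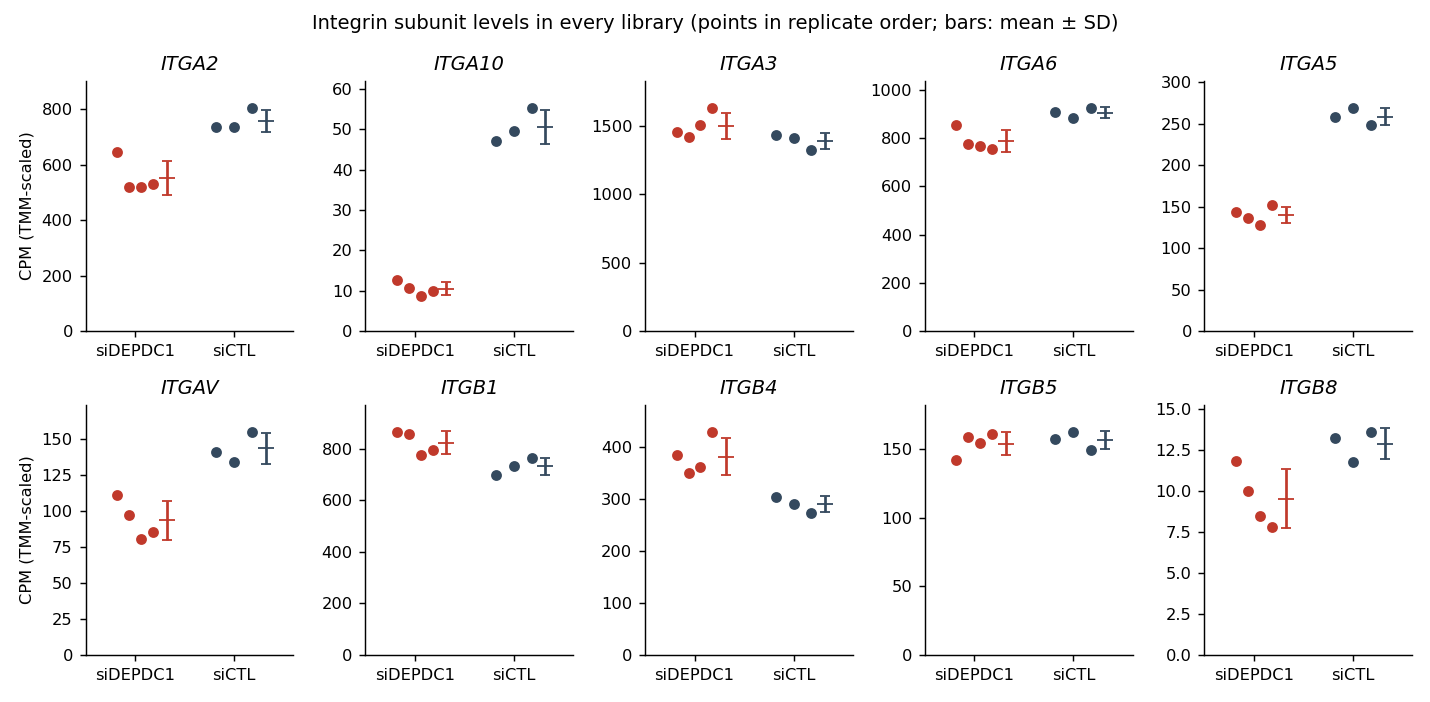
CPM of each of the 10 integrin subunits, 1 panel a gene with its own axis from 0, with 4 siDEPDC1 libraries in red and 3 siCTL libraries in dark blue, and mean ± SD beside the points. The 4 siDEPDC1 points of ITGA10 lie between 8.73 and 12.6 CPM and its siCTL points between 47.1 and 55.3 CPM, while the points of ITGB5 share 1 range.

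Levels of different genes were compared per kilobase of annotated exon. In siDEPDC1 the order from the top was ITGA3 (153 ± 9.62 CPM per kilobase, SD, n = 4), ITGB1 (137 ± 7.39), ITGA6 (121 ± 6.81), ITGA2 (70.1 ± 7.76), ITGB4 (56.4 ± 5.18), ITGB5 (23.9 ± 1.32), ITGA5 (18.5 ± 1.33), ITGAV (11.4 ± 1.66), ITGA10 (1.66 ± 0.257) and ITGB8 (0.629 ± 0.118). Among neighbours in that order, the library ranges of ITGB1 and ITGA6 alone overlapped. In siCTL the order was ITGA3 (142 ± 5.91 CPM per kilobase, SD, n = 3), ITGA6 (139 ± 3.36), ITGB1 (122 ± 5.41), ITGA2 (96.1 ± 5.04), ITGB4 (42.8 ± 2.30), ITGA5 (34.1 ± 1.36), ITGB5 (24.3 ± 1.04), ITGAV (17.5 ± 1.30), ITGA10 (8.02 ± 0.665) and ITGB8 (0.851 ± 0.0636), where the ranges of ITGA3 and ITGA6 alone overlapped. ITGA6 thus stood above ITGB1, and ITGA5 above ITGB5, in siCTL but not in siDEPDC1. With the length of the longest transcript in place of all exons, 4 members had another rank in siCTL and 0 in siDEPDC1, and ITGB1 (218 and 194 CPM per kilobase) stood above ITGA6 (140 and 161) in siDEPDC1 and siCTL alike.

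**Figure D2:**
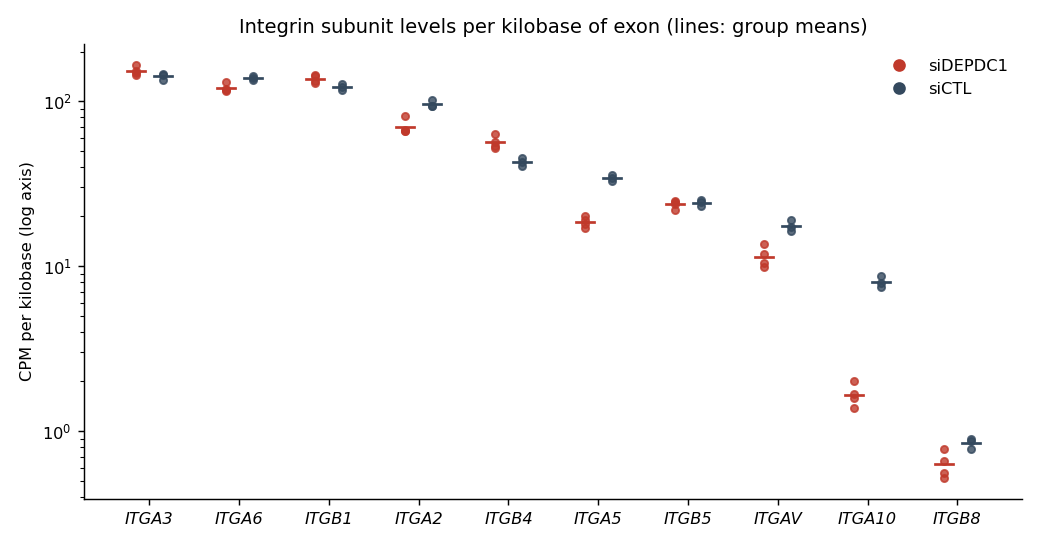
CPM per kilobase of exon on a log axis for the 10 subunits in the order of their siCTL means, with siDEPDC1 libraries in red left of siCTL libraries in dark blue and a line at each group mean. The 2 lowest genes are ITGA10 and ITGB8, and the gap between groups is widest in ITGA10, with means of 1.66 and 8.02 CPM per kilobase.

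Summed over ligand classes, the collagen-binding chains ITGA1, ITGA2 and ITGA10 came to 73.9 ± 8.29 CPM per kilobase in siDEPDC1 (SD, n = 4) and 108 ± 5.93 in siCTL (SD, n = 3). Most of each sum was ITGA2, at 70.05 and 96.05 CPM per kilobase, so the sums largely repeat its values. The RGD-binding chains ITGA5 and ITGAV came to 29.9 ± 2.40 and 51.6 ± 0.323 CPM per kilobase. Neither pair of sums overlapped between the groups. The laminin-binding chains ITGA3 and ITGA6 came to 274 ± 8.35 and 281 ± 4.41 CPM per kilobase, with overlap. The laminin chain ITGA7, at 1.11 CPM in siDEPDC1 and 0.597 CPM in siCTL, was not included. ITGA3 made up 40.8 ± 2.66% of the 6 alpha members per kilobase in siDEPDC1 and 32.6 ± 1.52% in siCTL, and ITGA5 4.92 ± 0.258% and 7.82 ± 0.377%. The ratio of ITGB4 to ITGA6, the chains of the hemidesmosome receptor, was 0.469 ± 0.0550 in siDEPDC1 and 0.309 ± 0.0209 in siCTL. That of ITGB1 to the 6 alpha members together was 0.366 ± 0.0213 and 0.279 ± 0.0120. These shares and ratios use the same contrast and are likewise a description. The sums, shares and ratios also depend on the gene length, and were not recomputed with the longest transcript. With that length ITGA3 was at 274 ± 17.2 CPM per kilobase in siDEPDC1 and 254 ± 10.6 in siCTL.

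The 10 subunits fell into 2 sets by how they varied between libraries of the same group. ITGA2, ITGA6, ITGA10, ITGAV, ITGB1 and ITGB8 were each highest in siDEPDC1 replicate 1 within their group and, in the controls, in siCTL replicate 3. The other 4, ITGA3, ITGA5, ITGB4 and ITGB5, were each highest in siDEPDC1 replicate 4 and lowest in siCTL replicate 3. Transcript GC content was 37.8% to 53.2% in the set of 6 and 54.3% to 63.7% in the set of 4. ITGA10, at 53.2%, was near ITGB5 (54.3%) and ITGA5 (54.5%), while the rest of its set was at most at 42.9%. In siDEPDC1 replicate 1 ITGA10 was 0.36 above the other siDEPDC1 libraries on the log2 scale. The same difference was -0.15 in ITGB5 and 0.059 in ITGA5. Over 16396 tested genes the same libraries leaned with GC content. The median log2 difference of siDEPDC1 replicate 1 from the other siDEPDC1 libraries was 0.12 in the quartile of genes with the lowest GC content and -0.10 in the highest quartile, that of siDEPDC1 replicate 4 was -0.12 and 0.11, and that of siCTL replicate 3 from the other siCTL libraries was 0.092 and -0.10. Between the groups, the median log2 fold change was -0.056 in the lowest and 0.064 in the highest quartile. With the trend removed, ITGA2 was at -0.32 ± 0.043 (SE), ITGB1 at 0.25 ± 0.042 and ITGA10 at -2.26 ± 0.083 on the log2 scale.

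**Figure D3:**
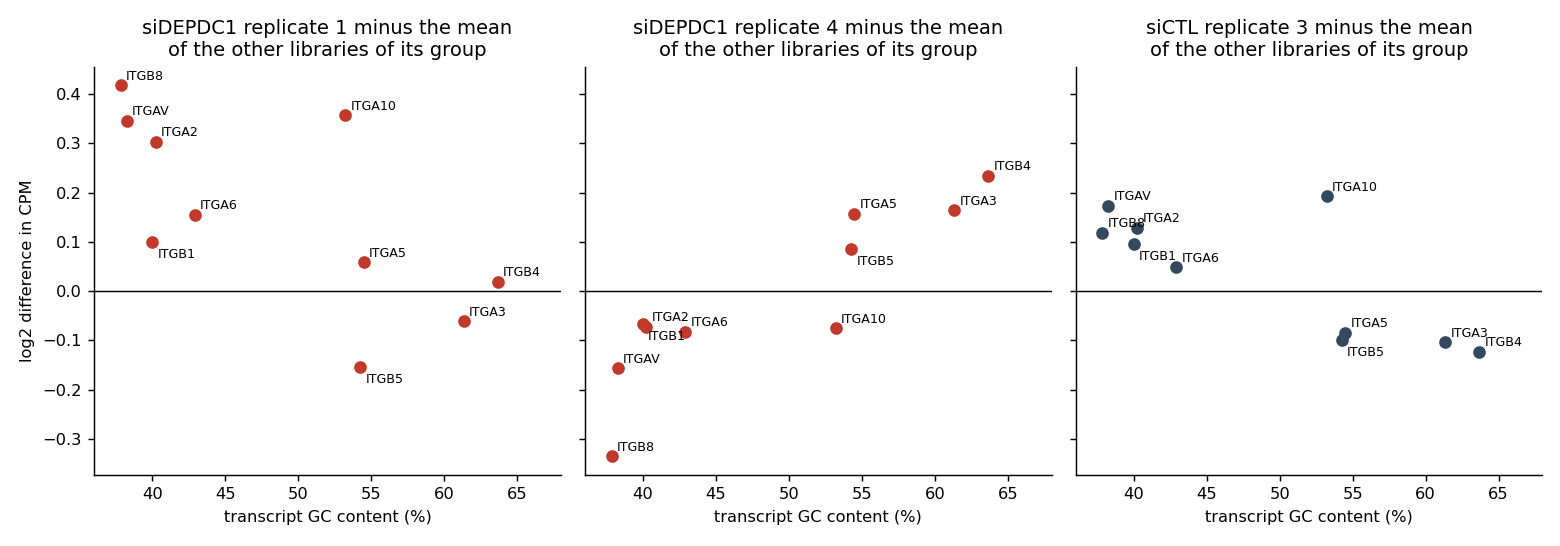
Log2 difference in CPM of siDEPDC1 replicate 1, siDEPDC1 replicate 4 and siCTL replicate 3 from the mean of the other libraries of the same group, against the GC content of the longest transcript, for the 10 subunits. ITGB8, at 37.8% GC, stands at 0.42, -0.34 and 0.12 in the 3 panels, and ITGB4, at 63.7% GC, at 0.019, 0.23 and -0.12.

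Annotated genes overlapped 9 of the 10 members, the exception being ITGA3, and 14 of these 18 overlapping genes lie on the opposite strand. The sources used here do not give the strand setting of the counting, so reads of a member and of its antisense gene cannot be told apart. GPR84-AS1 (ENSG00000258086), which shares 48 exon bases with ITGA5, had 5.04% as many counts as ITGA5 and a log2 fold change of -0.94 ± 0.12 (SE; edgeR adjusted p = 2.1e-07). AC243547.1, which shares 122 exon bases with ITGA10, had 4.87% as many counts and -1.73 ± 0.32 (SE; edgeR adjusted p = 4.5e-05). AC017101.1, which shares 203 exon bases with ITGAV, had 6.10% as many and -0.68 ± 0.13 (SE; edgeR adjusted p = 6.4e-05). Each was lower, as its partner was, where 17.9% of all tested genes were lower and 16.5% higher. ITGA6-AS1 (-0.28 ± 0.090, SE; edgeR adjusted p = 0.015) and ITGA2-AS1 (-0.85 ± 0.22, SE; edgeR adjusted p = 0.0023), which shares no exon base with ITGA2, were also lower. The other 4 overlapping genes with enough counts did not pass the test, PDK1-AS1 (-0.17; edgeR adjusted p = 0.065) and AC078883.2 (-0.21; 0.11) at ITGA6, ITGB1-DT (-0.16; 0.69) at ITGB1 and GALK1 (0.041; 0.80) at ITGB4. The partners of these 4 were past the threshold, ITGA6 as lower and ITGB1 and ITGB4 as higher.

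The 3 genes whose 7 library values were most like those of ITGA10 (smallest root mean square difference of centred log2 CPM, among 12163 genes of at least 5 CPM) were REEP3 (0.138), SLC44A1 (0.192) and NCEH1 (0.208). Nearest to ITGA5 were the basement membrane collagen COL4A1 (0.0260), the phosphatase gene DUSP3 (0.0568) and FYCO1 (0.0585), an adaptor of autophagosome transport. Nearest to ITGB4 were the amino acid transporter SLC38A7 (0.0175), the cytokine receptor IL17RA (0.0295) and LTBP4 (0.0333), which binds latent TGF-beta. The difference between the groups makes up most of each profile, and all points share the same 7 libraries.

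The other 16 integrin subunits, none of them on the list, were mostly silent. In 11 of them counts were too low to test, with 0 counts in all 7 libraries for ITGA8 and at most 72 counts over the 7 libraries in ITGB7, whose highest level was 1.51 CPM. A count of 0 allows up to 3 counts, or 0.197 to 0.390 CPM depending on the library. Of the 5 tested, 3 were lower and 1 higher, where 17.9% and 16.5% of all tested genes were. ITGA1, a collagen-binding chain encoded 30115 bases upstream of ITGA2 on chromosome 5, fell to 39.8 ± 5.76 CPM in siDEPDC1 (SD, n = 4), against 68.1 ± 5.15 CPM in siCTL (SD, n = 3), a log2 fold change of -0.77 ± 0.079 (SE; edgeR adjusted p = 1.7e-09). ITGB3, a partner of ITGAV, fell to 2.60 ± 0.612 CPM, against 5.97 ± 0.372 CPM (-1.18 ± 0.17, SE; edgeR adjusted p = 1.2e-06). The leukocyte chain ITGB2 fell to 24.8 ± 2.13 CPM, against 33.0 ± 1.32 CPM (-0.41 ± 0.079, SE; edgeR adjusted p = 9.3e-05). In these 3 genes every siDEPDC1 library lay below every siCTL library, as in 19.6% of all tested genes. ITGA7, a laminin chain of muscle, was at 1.11 ± 0.339 and 0.597 ± 0.187 CPM (edgeR adjusted p = 0.042), a call lost under 7 of 11 alternatives, among them those that left out siCTL replicate 2 or 3 (edgeR adjusted p = 0.18 and 0.10) or siDEPDC1 replicate 1 or 4 (0.10 and 0.064). ITGAE, a chain of intraepithelial lymphocytes, was at -0.035 on the log2 scale and did not pass (edgeR adjusted p = 0.78).

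**Figure D4:**
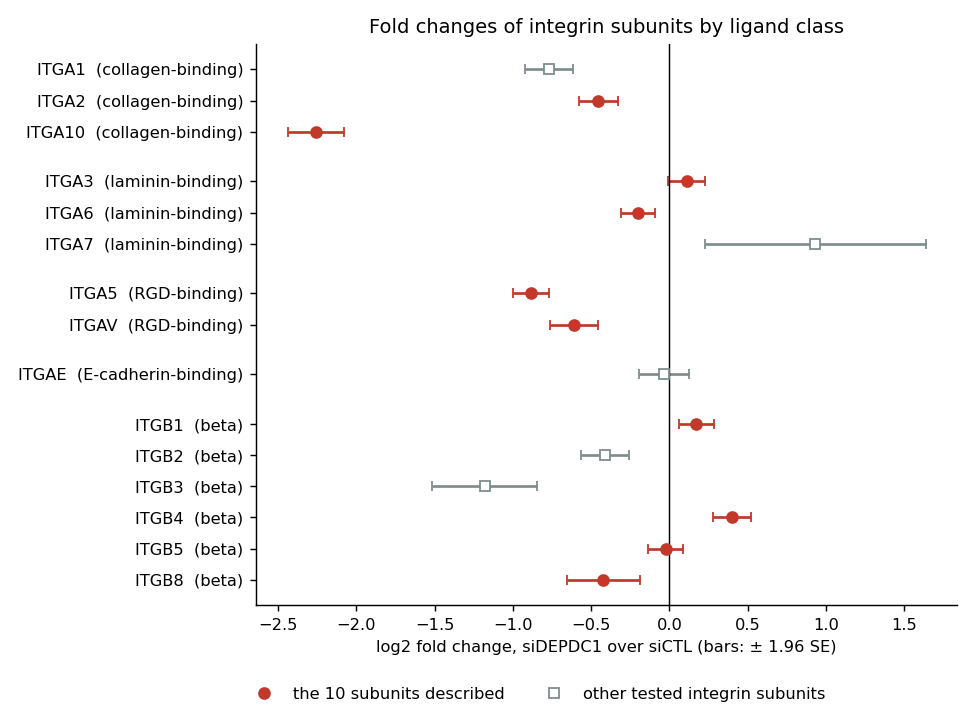
Log2 fold changes of siDEPDC1 over siCTL with 95% intervals for the 15 integrin subunits with enough counts, by ligand class, as red circles for the 10 subunits described and open grey squares for the other 5. ITGA1, ITGA2 and ITGA10 lie at -0.77, -0.46 and -2.26, and ITGB4 at 0.40.

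Among genes that bind integrin tails or switch integrins on, the largest falls were in RAP1A, RAP1B and PARVA. Of 30 tested, 9 were lower and 5 higher, beside 34.4% of all tested genes past the threshold, 17.9% lower and 16.5% higher, with a median log2 fold change of -0.088, against 0.0009 over all tested genes. RAP1A, a small GTPase that recruits talin to integrins, fell to 14.6 ± 1.955 CPM in siDEPDC1, against 51.4 ± 3.88 CPM in siCTL (-1.82 ± 0.087, SE; edgeR adjusted p = 2.4e-18). Its paralog RAP1B fell to 24.6 ± 1.19 CPM, against 68.7 ± 0.826 CPM (-1.48; edgeR adjusted p = 1.8e-18), and APBB1IP, the adaptor that links RAP1 to talin, fell 1.44-fold (edgeR adjusted p = 4.6e-07). PARVA, the alpha-parvin of the complex with integrin-linked kinase, fell to 82.6 ± 6.41 CPM, against 173 ± 1.22 CPM (-1.075; edgeR adjusted p = 2.3e-16). The gene of that kinase, ILK, chosen after its values were seen, rose 1.13-fold with overlapping groups (edgeR adjusted p = 0.022). RAP1A, RAP1B and PARVA, but no other of the 30 genes, have GATAACT in the 3' UTR, beside 7.71% of all genes searched. The word was picked from the fold changes of these libraries, so nothing is read from its copies here. The kindlin gene FERMT1 rose to 29.2 ± 1.85 CPM, against 20.3 ± 1.961 CPM (0.53; edgeR adjusted p = 6.0e-06), while its more abundant paralog FERMT2, chosen after its values were seen, fell to 80.2 ± 6.16 CPM, against 100.0 ± 4.17 CPM (-0.31; edgeR adjusted p = 0.00016). SRC, KANK2 and LIMS2 rose 1.29-fold, 1.19-fold and 1.25-fold (edgeR adjusted p = 0.00010, 0.00080 and 0.0050). The talin gene TLN1 (-0.14; edgeR adjusted p = 0.068), the vinculin gene VCL (-0.039; 0.62) and the paxillin gene PXN (-0.047; 0.53), chosen after their values were seen, did not pass the test.

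Matrix genes that encode integrin ligands changed in both directions: of 28 tested, 11 were lower and 5 higher (17.9% and 16.5% of all tested genes), with a median log2 fold change of -0.14. The basement membrane collagens COL4A1 and COL4A2 fell to 53.3 ± 3.00 and 188 ± 10.6 CPM in siDEPDC1, against 97.6 ± 4.01 and 296 ± 14.8 CPM in siCTL (-0.87 and -0.65; edgeR adjusted p = 1.7e-13 and 2.1e-11). LAMB3, a chain of the laminin bound by ITGA3 and ITGA6, fell 1.52-fold (edgeR adjusted p = 8.7e-11), and EDIL3, an RGD protein bound by ITGAV receptors and a carrier of GATAACT, fell 1.71-fold (edgeR adjusted p = 7.2e-13). Against these, the fibrillar collagen gene COL1A1 rose to 30.2 ± 2.52 CPM, against 12.9 ± 1.36 CPM (1.22; edgeR adjusted p = 5.4e-13). LAMA4, also a carrier, rose 1.40-fold (edgeR adjusted p = 1.1e-06). FBN1, the fibrillin of microfibrils, rose 1.26-fold and the matricellular gene CCN1 1.21-fold (edgeR adjusted p = 8.5e-05 and 0.00013). The remaining carrier, COL5A1, fell 1.13-fold (edgeR adjusted p = 0.019). Carriers were thus 3 of 28 genes, beside 7.71% of all genes searched.

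Membrane partners of integrins had 10 lower and 3 higher members of 21 tested (17.9% and 16.5% of all tested genes), with a median log2 fold change of -0.17. The tetraspanin CD82 fell to 109 ± 5.73 CPM in siDEPDC1, against 167 ± 8.25 CPM in siCTL (-0.62; edgeR adjusted p = 1.3e-10). The membrane protease ADAM9, the caveola protein CAV1 and the urokinase receptor PLAUR fell 1.39-fold, 1.34-fold and 1.24-fold (edgeR adjusted p = 1.6e-08, 1.1e-07 and 0.00014). ADAM10, the only carrier of GATAACT here, fell with overlapping groups (-0.17; edgeR adjusted p = 0.029). Carriers were thus 1 of 21 genes, beside 7.71% of all genes searched. SDC1, a heparan sulfate co-receptor, rose to 110 ± 10.95 CPM, against 64.1 ± 2.35 CPM (0.78; edgeR adjusted p = 2.8e-11). The tetraspanins CD9 (0.20; edgeR adjusted p = 0.0082) and CD81 (0.15; edgeR adjusted p = 0.040) were higher by less. CD9 was not past the threshold without siCTL replicate 1 or siCTL replicate 2 (edgeR adjusted p = 0.071 and 0.053), and CD81 under 9 of 13 alternatives, among them without any siCTL replicate (edgeR adjusted p = 0.088, 0.085 and 0.13) and without siDEPDC1 replicate 2, 3 or 4 (0.081, 0.096 and 0.097).

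Genes of integrin uptake and recycling had 6 lower and 6 higher members of 23 tested (17.9% and 16.5% of all tested genes) and a median log2 fold change of -0.065. MYO10, the myosin that carries integrins to filopodium tips and a carrier of GATAACT, fell to 99.5 ± 1.84 CPM in siDEPDC1, against 255 ± 7.10 CPM in siCTL (-1.36; edgeR adjusted p = 3.1e-20). ARF6, a GTPase of integrin recycling and the only other carrier here, fell 1.38-fold (edgeR adjusted p = 8.4e-09). Carriers were thus 2 of 23 genes, beside 7.71% of all genes searched. IQSEC1, the exchange factor of ARF6, fell 1.30-fold and the early endosome GTPase RAB5A 1.19-fold (edgeR adjusted p = 3.7e-05 and 0.0018). RAB11A, of recycling endosomes, rose 1.25-fold, RAB1A 1.21-fold, RABGAP1 1.20-fold and RAB7A, of late endosomes, 1.16-fold (edgeR adjusted p = 7.0e-05, 0.00037, 0.00066 and 0.0020).

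**Figure D5:**
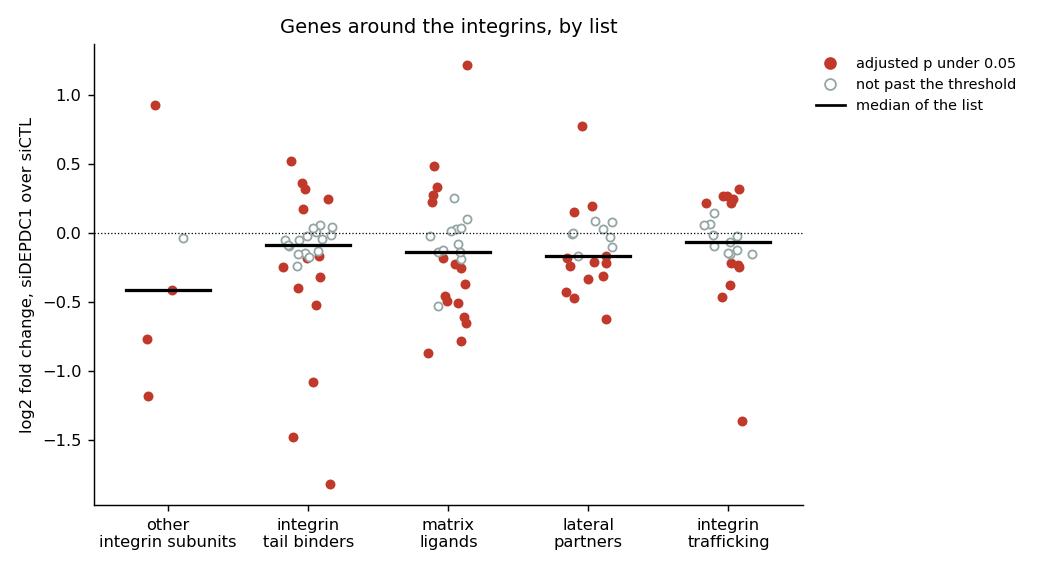
Log2 fold changes of siDEPDC1 over siCTL for the tested genes of 5 lists, with red points past an edgeR adjusted p of 0.05, open grey points not past it and a line at each median. RAP1A (-1.82), RAP1B (-1.48) and MYO10 (-1.36) are the lowest points, and COL1A1 (1.22) is the highest.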

How the data were processed

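The authors deposited unnormalized whole-number counts, 1 column a library and 1 row an Ensembl gene. Per the submitters' processing notes GRCh38, STAR 2.7.9a, FastQC and DESeq2 were used, in roles that are not stated; per the labels' protocols TruSeq RNA libraries were read as pairs of 100 bases. The sources used here do not give the counter, annotation release or strand setting. Symbols came from a name table (42022 of 60675 identifiers), and positions, exon lengths, GC content and transcripts from GENCODE release 29, which holds 58444.

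After filterByExpr, the quasi-likelihood test of edgeR 4.0.16 was run (R 4.3.3; TMM factors, robust glmQLFit, two-sided glmQLFTest), group as the only term, with Benjamini-Hochberg adjustment over all 16583 tested genes at 0.05. "Lower", "higher", "rose" and "fell" of genes outside the 10 mean past this threshold, as siDEPDC1 over siCTL. The SE of a log2 fold change was its absolute value divided by the square root of the F statistic. The 95% intervals reach 1.96 SE to each side and are approximate. The fit was tested on simulated data. The 10 subunits and the 5 gene lists were chosen with earlier results of these data known. Genes named from the lists are up to 4 with the smallest adjusted p in each direction, plus all tested integrin subunits and all tested carriers of GATAACT. Alternatives were DESeq2 size factors, no count filter, a floor of 50 counts in all libraries of 1 group, the test of DESeq2 1.42.0, a replicate block, each library left out in turn, another gene length, and the GC and length correction, added after seeing the data (98.9% of tested genes had values).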

Additional observations from a re-analysis of the deposited data

Results flagged for a closer look

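In 65 sets of 4 siDEPDC1 values, the gap between an extreme library and the next one was divided by the range of the set. Chance takes this ratio past its limit in about 1 of 20 sets, and 3 sets passed. For ITGA2, replicate 1 (646 CPM) stood apart from the others (519 to 532 CPM), with a gap of 0.903 of the range. The sum of ITGA1, ITGA2 and ITGA10, of which ITGA2 is the largest part, did so with it, at 86.2 CPM per kilobase in replicate 1 and 68.9 to 70.8 in the others (0.889). The ratio of ITGB4 to ITGA6 was 0.550 in replicate 4 and 0.435 to 0.454 in the others (0.830). Without siDEPDC1 replicate 1 the log2 fold change of ITGA2 was -0.53, and without siDEPDC1 replicate 4 that of ITGB4 was 0.34.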

How the results depend on the processing

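Over 13 alternatives 6 of the 10 subunits were lower each time, and the number that were higher ranged from 1 to 2 when single libraries were left out, at 1 when siCTL replicate 1 or 2, or siDEPDC1 replicate 2, was left out, where ITGB1 missed the threshold. Over all tested genes 2359 to 3208 were lower and 2132 to 3437 higher, and DEPDC1 stayed between -3.22 and -3.02 on the log2 scale. Past the threshold were 3 to 4 of the other integrin subunits, 10 to 19 tail binders, 14 to 19 matrix ligands, 9 to 14 membrane partners and 11 to 14 trafficking genes. Of the 47 genes whose fold changes were recomputed, ITGB5 and ITGAE, neither past the threshold, changed sign: ITGB5 was at 0.003 without siCTL replicate 2 and 0.015 without siDEPDC1 replicate 1, and ITGAE at 0.011 without siDEPDC1 replicate 1. Removing the GC and length trend moved ITGA2 from -0.455 to -0.32, ITGA6 from -0.20 to -0.11 and ITGB1 from 0.17 to 0.25. It moved ITGAV and ITGB8, whose replicates spread more widely, from -0.61 to -0.47 and from -0.42 to -0.265. Libraries of the 2 groups share replicate numbers 1 to 3. Within a number, deviations from the group means had a Pearson r across genes of -0.14, -0.045 and -0.0065. These values do not show a pairing, but they cannot exclude that libraries of equal number shared a culture or batch. With the number as a block, in the 3 libraries of each group that share one, 2437 genes were lower and 2292 higher, 6 of the 10 subunits were lower and 2 higher, DEPDC1 was at -3.10, and 3 other subunits, 14 tail binders, 17 ligands, 11 partners and 11 trafficking genes passed. ITGB8 and ITGA10 in siDEPDC1 rest on fewest counts (65 to 136 and 67 to 144), and their SEs are the widest of the 10.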
